A study of Mus musculus with 17 samples.

Results

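Of the 26556 genes listed in the count files, 9 are the cortical transcription factors *Fezf2*, *Tbr1*, *Emx1*, *Emx2*, *Bhlhe22*, *Mef2c*, *Bcl11a*, *Bcl11b*, and *Meis2*, chosen by their gene symbols, and all 9 had counts. They were measured by bulk RNA-seq in 17 libraries of astrocytes sorted for GFP from P7 *Gfap::Gfp* mice on the FVB background, each library a pool of 4 brains. The primary somatosensory cortex gave 4 libraries. The 13 thalamic libraries came from 3 relay nuclei, with 5 from the dLG (visual), 4 from the VPM (somatosensory), and 4 from the MGv (auditory). All groups carried the same transgene, in which the *Gfap* promoter drives GFP, and none was treated. That promoter can also be active in progenitors and other glia, so the sort defines the cells by their fluorescence and not by a single cell type. The comparisons ask which of these genes differ between the sorted cells of the cortex and of the 3 thalamic nuclei at this age.

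The 9 genes encode proteins that pattern the dorsal telencephalon or specify its neurons. The homeodomain proteins Emx1 and Emx2 mark the dorsal telencephalic neuroepithelium, from which cortical projection neurons and cortical astrocytes both descend. Fezf2, Tbr1, Bcl11b (also called Ctip2), Bcl11a (Ctip1), and Bhlhe22 then act in young projection neurons, where they select among layers, axon targets, and cortical areas, and Mef2c and Meis2 work in neuronal maturation and in forebrain regionalization. The thalamus develops from the diencephalon, whose progenitors use a partly different set of homeodomain and zinc finger factors.

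The identity of the sorted cells was checked against marker genes. The summed level of 8 astrocyte markers ranged from 12250 to 13130 CPM (counts scaled to the library size with TMM factors) over the cortical libraries and from 5716 to 14900 CPM over the thalamic ones, and no astrocyte marker was at 0 in any group. The highest thalamic sum was that of MGv replicate c. Every other thalamic library was at most 8620 CPM, below the lowest cortical one. The cortical median was 1.62 times the thalamic one. *Gfap* itself, whose promoter drives the sorted GFP, varied among the nuclei, with 450.0 to 537.3 CPM in cortical, 78.2 to 1308 CPM in dLG, 8.98 to 19.2 CPM in VPM, and 36.1 to 5519 CPM in MGv libraries. It was lower in the VPM than in the cortex (log2FC -5.33, adjusted p = 0.00826) and the dLG (-5.46, adjusted p = 0.0276), and higher in the MGv than in the VPM (7.28, adjusted p = 0.00793). Neuronal and oligodendrocyte lineage RNA was also present. The summed level of 10 general neuron markers ranged from 1146 to 1370 CPM in the cortex and from 783.4 to 2020 CPM in the thalamus, and that of 7 oligodendrocyte lineage markers from 6625 to 8012 CPM and from 6119 to 11110 CPM. Library totals ranged from 18213687 to 50366363 counts, with cortex replicate a the deepest at 2.46 times the median of the others. The library dLG replicate c stood apart, with 17749 genes detected against 21052 to 23365 in the other libraries, and results that change without it are given with both values. In these bulk samples, fewer cells of a type and less RNA per cell cannot be told apart.

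Promoter sequences are shown for the genes whose results differ most, as far as no annotated UTR begins in the window. They were taken from RefSeq on GRCm38.p6, which gave windows from 250 bases before to 50 after a start site for 8 of the 9 genes and none for *Bhlhe22*. *Fezf2* had the largest difference between regions and lies on chromosome 14 from 12342094 to 12348189 on the minus strand. *Tbr1* lies on chromosome 2 from 61802930 to 61814114 on the plus strand. *Mef2c* had the highest mean level per length in the cortex and lies on chromosome 13 from 83504034 to 83667080 on the plus strand. *Bcl11a* differed most among the nuclei and lies on chromosome 11 from 24078056 to 24174123 on the plus strand. Capitals mark the homeodomain core TAATTA and the T-box core TCACAC, which reads GTGTGA on the other strand.
Fezf2 at chr14:12345960-12346115, minus strand: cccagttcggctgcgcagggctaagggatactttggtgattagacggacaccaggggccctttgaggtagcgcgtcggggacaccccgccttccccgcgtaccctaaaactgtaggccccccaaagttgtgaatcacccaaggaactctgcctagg
Tbr1 at chr2:61804203-61804452, plus strand: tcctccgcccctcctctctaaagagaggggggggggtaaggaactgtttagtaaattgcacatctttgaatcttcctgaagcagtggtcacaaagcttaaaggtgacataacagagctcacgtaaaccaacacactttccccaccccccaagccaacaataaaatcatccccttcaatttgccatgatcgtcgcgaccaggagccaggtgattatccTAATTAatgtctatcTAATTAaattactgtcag
Mef2c at chr13:83503784-83504033, plus strand: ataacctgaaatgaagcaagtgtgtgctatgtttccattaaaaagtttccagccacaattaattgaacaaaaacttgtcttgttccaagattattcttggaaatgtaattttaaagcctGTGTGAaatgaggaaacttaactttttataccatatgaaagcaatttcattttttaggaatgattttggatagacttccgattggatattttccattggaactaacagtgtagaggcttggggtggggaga
Bcl11a at chr11:24080445-24080669, plus strand: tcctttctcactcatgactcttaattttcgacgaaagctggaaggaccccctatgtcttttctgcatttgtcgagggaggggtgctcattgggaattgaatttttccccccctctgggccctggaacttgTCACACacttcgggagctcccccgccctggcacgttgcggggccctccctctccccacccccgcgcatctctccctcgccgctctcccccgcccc

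The printed *Tbr1* window holds 2 copies of TAATTA, and those of *Mef2c* and *Bcl11a* hold 1 T-box core each. The printed *Fezf2* stretch holds neither set of letters. The 8 genes had 10 windows. Over the whole windows, TAATTA was found for 3 of the 8 genes (*Tbr1*, *Emx2*, and a second start site of *Mef2c*), in 3 of the 10 windows, and in 5.29% of all 32851 promoter windows. TCACAC or its reverse was found for 4 of the 8 (*Bcl11a*, *Bcl11b*, *Mef2c*, and *Meis2*), in 4 of the 10 windows, and in 14.5% of all windows. These are matches of letters and not sites at which a factor was measured.

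In all, 8 of the 9 genes were lower in the thalamic than in the cortical libraries, and *Bcl11b* was not called. The lower genes were *Fezf2*, *Emx1*, *Tbr1*, *Mef2c*, *Meis2*, *Emx2*, *Bcl11a*, and *Bhlhe22* in the order of the size of their log2FC. Of the 17856 genes tested, 5.93% were called lower in the thalamus at an adjusted p under 0.1. For 6 of the 9 genes every thalamic library lay below every cortical one, which held for 3.09% of all genes tested. The median log2FC of the 9 genes was -2.31, and that of all genes tested 0.02. *Fezf2* and *Emx1* passed the filter on low counts through the cortex alone, so that their place among the lower genes was in part set by the filter, and the same holds for *Neurod2*, *Neurod6*, *Slc30a3*, *Lhx6*, *Dlx1*, *Dlx2*, *Dlx5*, *Dmrta2*, and *Dmrt3* in the lists described further on.

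**Figure D1:**
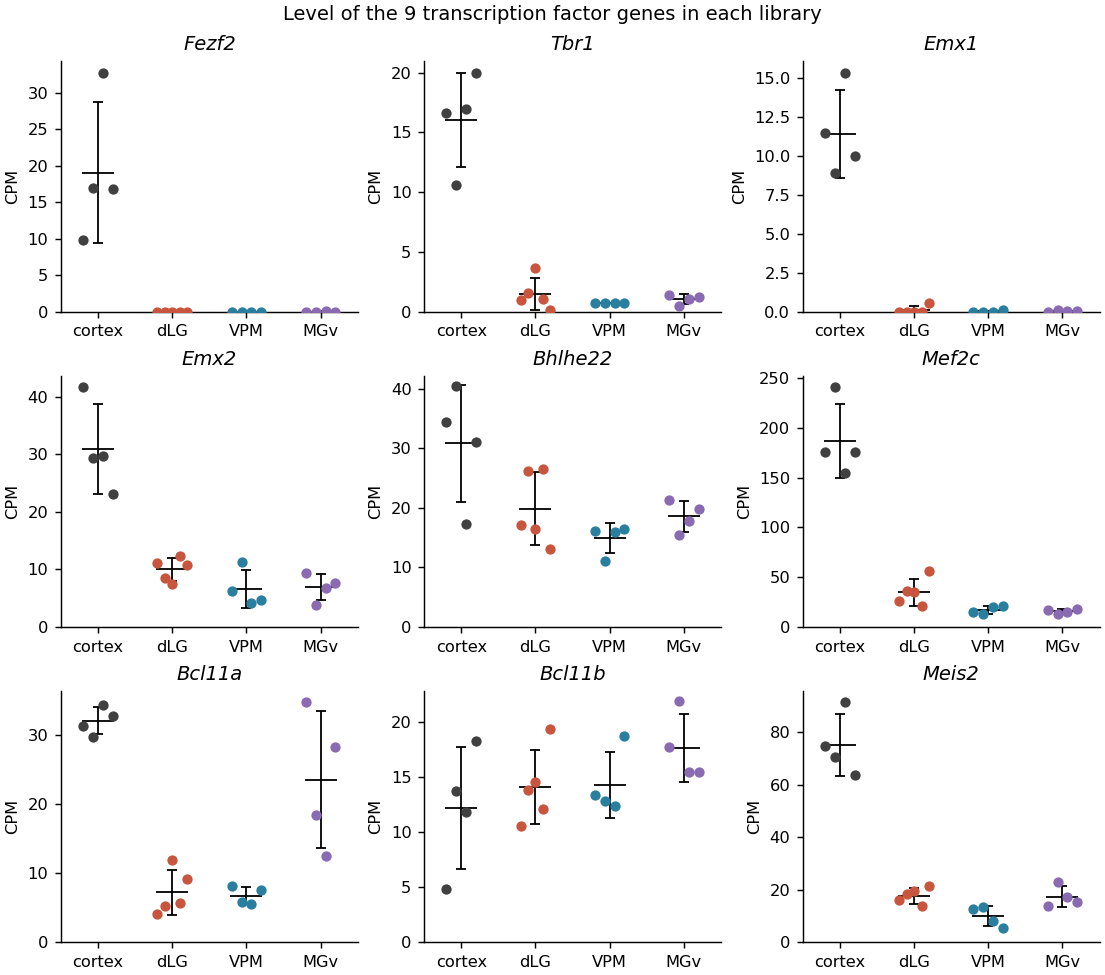
Level of each gene in CPM (vertical axes start at 0) in the libraries of the cortex, dLG, VPM, and MGv. Points are libraries, horizontal bars means, and error bars SDs. *Fezf2* and *Emx1* lie at or near 0 in the thalamus, *Bcl11a* spans 12.5 to 34.8 CPM in the MGv, and the *Bcl11b* groups overlap.

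*Fezf2*, a zinc finger factor that selects subcerebral projection neuron fate, was detected in the cortical libraries and was almost without counts in the thalamic ones. The 4 cortical libraries measured 9.83, 17, 32.7, and 16.8 CPM (mean 19.1 ± 9.67 CPM, SD). All 5 dLG and all 4 VPM libraries were at 0, and so were 3 of the 4 MGv libraries, while MGv replicate c held 2 counts (0.0949 CPM). The cortical level was thus at least 658-fold higher than in the dLG and at least 504-fold higher than in the VPM, against a floor of 3 counts over each group. Against the 2 counts of the MGv it was 794-fold higher, with a counting interval from 220 to 6558, and without MGv replicate c it was at least 396-fold higher than in the MGv and at least 1557-fold higher than in the whole thalamus. The regional difference had an adjusted p of 1.59e-11. The cortical libraries differed among themselves, with an SD of 50.7% of the mean, the largest spread of the 9 genes within the cortex.

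*Emx1*, the homeobox gene whose expression outlines the dorsal telencephalon, showed a similar pattern. The cortical libraries measured 11.5, 8.90, 15.3, and 9.99 CPM (mean 11.4 ± 2.81 CPM). In the dLG 4 libraries were at 0, whereas replicate e held 11 counts (0.555 CPM), and in the VPM 3 libraries were at 0, with 2 counts in replicate d. The MGv libraries held 0, 2, 1, and 1 counts. Hence no thalamic library reached the lowest cortical level. The cortical mean was 107-fold higher than the pooled dLG level, with a counting interval from 60.01 to 215, and without dLG replicate e it was at least 318-fold higher. It was 452-fold higher than the VPM (125 to 3733), at least 224-fold higher without VPM replicate d, and 238-fold higher than the MGv (92.8 to 872). The regional difference had an adjusted p of 7.76e-07.

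*Emx2*, the paralog of *Emx1*, was lower in the thalamus but not absent. It measured 41.7, 29.3, 29.6, and 23.2 CPM in the cortex (mean 30.9 ± 7.75 CPM). The dLG libraries measured 11.1, 8.55, 7.41, 12.3, and 10.7 CPM, the VPM libraries 6.30, 11.3, 4.20, and 4.63 CPM, and the MGv libraries 9.38, 3.88, 6.69, and 7.65 CPM. Every thalamic library lay below the lowest cortical one, and the nuclei overlapped one another. The log2FC was -1.95 ± 0.25 (SE) with an adjusted p of 2.47e-05, a 3.86-fold difference. Within a library, the ratio of *Emx1* to *Emx2* counts was 0.275 to 0.5175 in the cortex and at most 0.0516 in the thalamus. The antisense gene *Emx2os* shares 264 bases, or 8.79% of the exonic length of *Emx2*, and reads of the 2 genes in that stretch cannot be told apart where strand was not used. *Emx2os* was itself lower in the thalamus, at a mean of 1.74 ± 1.197 CPM against a cortical 6.29 ± 1.06 CPM (log2FC -1.85, adjusted p = 0.00300).

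*Tbr1*, a T-box factor of early-born and corticothalamic neurons, was low in the thalamic libraries without being absent. The cortical libraries measured 16.6, 10.6, 16.97, and 19.97 CPM (mean 16.0 ± 3.92 CPM). In the dLG the values were 0.982, 1.58, 3.68, 1.09, and 0.151 CPM, and the 4 VPM libraries lay between 0.716 and 0.750 CPM. The MGv libraries measured 1.44, 0.518, 1.09, and 1.27 CPM. All 13 thalamic libraries were therefore below the cortical ones, although dLG replicate c stood above the other thalamic libraries. The log2FC was -3.81 ± 0.41 with an adjusted p of 2.66e-06, a 14.05-fold difference. Without dLG replicate c the log2FC of the dLG against the cortex was -4.06 in place of -3.41.

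*Mef2c* encodes a MADS-box factor of maturing excitatory neurons and is also transcribed in microglia and blood vessels. It had the highest mean level per length of the 9 genes in the cortex, above *Emx2* in 2 of the 4 cortical libraries. It measured 176.0, 240.7, 154.8, and 176.0 CPM in the cortex (mean 186.9 ± 37.2 CPM). The dLG libraries measured 26.3, 35.7, 34.85, 20.9, and 56.3 CPM, the VPM libraries 14.7, 12.6, 19.6, and 21.2 CPM, and the MGv libraries 16.97, 13.4, 14.6, and 17.9 CPM. The lowest cortical library was thus above the highest thalamic one. The log2FC was -2.99 ± 0.28 with an adjusted p of 4.61e-07, a 7.96-fold difference. The count ratio of *Mef2c* to its paralog *Mef2a* was 3.03 to 4.04 in the cortex and 0.155 to 0.910 in the thalamus, and *Mef2a* itself was not called (log2FC 0.34, adjusted p = 0.211). The summed level of 6 microglia markers was 10.7 to 19.5 CPM in the cortex and 6.92 to 100.8 CPM in the thalamus, and that of 6 vascular markers 37.8 to 64.7 CPM and 2.36 to 62.8 CPM. The highest thalamic vascular sum was that of dLG replicate a, and every other thalamic library was at most 16.6 CPM, below the lowest cortical one. The cortical median was 5.34 times the thalamic one for the vascular and 0.495 times for the microglia markers. Of these markers, *Pdgfrb* was lower in the thalamus (2.84 CPM against 38.1 CPM in the cortex, log2FC -3.74, adjusted p = 1.22e-05) and made up most of the cortical vascular sum, and the other vascular and the microglia markers were not called over the pooled thalamus. In single nuclei, 4 of the 6 microglia markers were higher in the dLG than in the cortex (*C1qb*, *Tmem119*, *Cx3cr1*, and *Csf1r*) and 3 in the MGv (*C1qb*, *Cx3cr1*, and *Csf1r*), where *Mef2c* was lower, none was called by edgeR or DESeq2 or had an unadjusted p under 0.05 in the VPM, and the vascular marker *Rgs5* was lower in the MGv. Their part in the *Mef2c* difference was not tested.

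*Meis2*, a TALE homeodomain factor of the forebrain, measured 74.8, 70.6, 91.5, and 63.7 CPM in the cortex (mean 75.1 ± 11.8 CPM). The dLG libraries measured 15.9, 18.4, 19.3, 13.6, and 21.4 CPM, the VPM libraries 12.7, 13.2, 7.96, and 5.42 CPM, and the MGv libraries 13.7, 22.9, 17.3, and 15.4 CPM. No thalamic library reached the cortical range. The log2FC was -2.31 ± 0.23 with an adjusted p of 1.01e-06, a 4.95-fold difference. Its paralog *Meis1* was higher in the thalamus, at 49.0 ± 11.98 CPM against 32.2 ± 2.36 CPM in the cortex (log2FC 0.61 ± 0.18, adjusted p = 0.0421), with 18.3% of its exonic length shared with other annotated genes. The count ratio of *Meis2* to *Meis1* accordingly was 1.995 to 3.155 in the cortical libraries and 0.154 to 0.460 in the thalamic ones. The *Meis1* call was lost without cortex replicate c (adjusted p = 0.130) or d (0.119).

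*Bcl11a* and *Bcl11b* encode related zinc finger repressors of projection neuron subtypes and differed from each other in these libraries. *Bcl11a* was even across the cortex, with 31.4, 29.8, 34.4, and 32.8 CPM and an SD of 6.11% of the mean. It measured 4.02, 5.25, 11.9, 5.62, and 9.08 CPM in the dLG and 8.07, 5.80, 5.503, and 7.49 CPM in the VPM. In the MGv it measured 34.8, 18.4, 12.5, and 28.3 CPM, so that the MGv overlapped the cortex while the dLG and VPM lay below it. The regional log2FC was -1.41 ± 0.43 with an adjusted p of 0.0490, and without any 1 of the 4 cortical libraries the adjusted p was 0.106 (replicate a), 0.109 (b), 0.129 (c), or 0.149 (d). *Bcl11b* measured 4.84, 13.7, 11.8, and 18.2 CPM in the cortex, 10.5 to 19.4 CPM in the dLG, 12.3 to 18.7 CPM in the VPM, and 15.4 to 21.9 CPM in the MGv. Its groups overlapped, and the log2FC was 0.33 with a 95% interval from -0.19 to 0.85 and an adjusted p of 0.492. The count ratio of *Bcl11a* to *Bcl11b* was 1.80 to 6.49 in the cortex, 0.382 to 0.821 in the dLG, 0.400 to 0.606 in the VPM, and 0.812 to 1.97 in the MGv.

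*Bhlhe22*, a basic helix-loop-helix repressor of upper and deep layer area identity, had the smallest of the called differences. The cortical libraries measured 34.5, 40.5, 17.4, and 31.1 CPM (mean 30.9 ± 9.81 CPM). The dLG libraries measured 17.2, 26.2, 16.4, 26.6, and 13.1 CPM, the VPM libraries 16.2, 11.1, 16.0, and 16.4 CPM, and the MGv libraries 21.4, 15.4, 17.85, and 19.8 CPM. Cortex replicate c fell within the thalamic range and the other cortical libraries lay above it. The log2FC was -0.78 ± 0.21 with an adjusted p of 0.0226, a 1.72-fold difference, and it was not called without cortex replicate b (log2FC -0.63, adjusted p = 0.154).

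The 3 nuclei were next compared with the cortex one by one, in comparisons that share the 4 cortical libraries. In the dLG 8 of the 9 genes were lower than in the cortex, where 9.04% of all genes tested were called lower. In the VPM 8 were lower, with 5.44% of all genes, and in the MGv 7 were lower, with 7.51% of all genes. *Bcl11b* was called in no nucleus and its log2FC was 0.21 for the dLG, 0.24 for the VPM, and 0.54 for the MGv, the last with a 95% interval from -0.09 to 1.17. *Bcl11a* was lower in the dLG (log2FC -2.16 ± 0.30, adjusted p = 7.69e-05) and in the VPM (-2.25 ± 0.33, adjusted p = 0.000152). In the MGv its log2FC was -0.45, with a 95% interval from -1.10 to 0.21 and an adjusted p of 0.405. *Mef2c* was 5.37-fold lower in the dLG, 10.98-fold lower in the VPM, and 11.9-fold lower in the MGv, and *Meis2* was 4.24-fold, 7.66-fold, and 4.33-fold lower. *Bhlhe22* was lower in the VPM (log2FC -1.05, adjusted p = 0.0159), and its calls in the dLG (-0.63, adjusted p = 0.0912) and the MGv (-0.73, adjusted p = 0.0791) were lost in 13 and in 10 of the 17 fits that left out 1 library, with adjusted p up to 0.290 and 0.247 (for the dLG 0.156 without dLG replicate c).

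**Figure D2:**
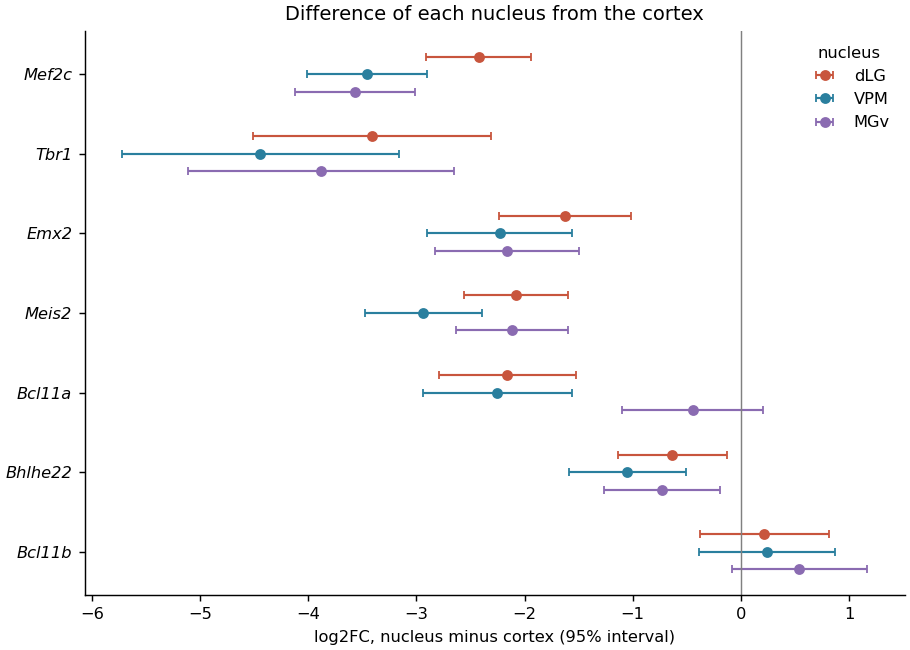
Fitted log2FC of the dLG, VPM, and MGv minus the cortex for 7 of the 9 genes, with 95% intervals as bars. *Fezf2* and *Emx1* are left out because, with few or no counts in the nuclei, their fitted values depend on the prior count. The interval of *Bcl11a* includes 0 in the MGv and not in the dLG or VPM, and those of *Bcl11b* include 0 in all 3 nuclei.

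Among the nuclei, *Bcl11a* and *Mef2c* differed and the other 5 genes that could be tested were not called. The test over the 3 nuclei gave an adjusted p of 0.00769 for *Bcl11a* and 0.0212 for *Mef2c*, and 9.43% of the 17319 genes tested were called. For *Meis2* it gave 0.104. *Bcl11a* was higher in the MGv than in the dLG (log2FC 1.71 ± 0.34, adjusted p = 0.0349) and the VPM (1.84 ± 0.37, adjusted p = 0.0113), with every MGv library above every other thalamic library. Without dLG replicate b or MGv replicate a or d the difference between the MGv and the dLG kept its direction with an adjusted p of 0.128, 0.121, or 0.137. *Bcl11a* did not separate the VPM from the dLG (log2FC -0.13, 95% interval from -0.86 to 0.60, adjusted p = 0.861). *Mef2c* was higher in the dLG than in the VPM (VPM minus dLG -1.07 ± 0.26, adjusted p = 0.0358) and the MGv (MGv minus dLG -1.15 ± 0.26, adjusted p = 0.0892). The first of these was lost without VPM replicate a (adjusted p = 0.127) or c (0.102), and the second without any 1 of 10 of the 13 libraries, with adjusted p from 0.111 (dLG replicate c) to 0.277. At the level of groups, the 6 microglia markers moved with the first of these pairs. Their summed level was 12.1 to 100.8 CPM (median 53.2) in the dLG and 6.92 to 11.6 CPM (median 10.4) in the VPM. In the VPM 4 of them were lower. In dLG replicates a to e *Mef2c* measured 26.3, 35.7, 34.85, 20.9, and 56.3 CPM. The microglia sums did not keep that order, at 100.8, 12.1, 27.2, 64.8, and 53.2 CPM. In the MGv the sum was 15.9 to 58.2 CPM (median 42.6), and no microglia marker was called by edgeR or DESeq2 between the MGv and the dLG or had an unadjusted p under 0.05 there. The summed 8 inhibitory neuron markers were 25.4 to 49.9 CPM (median 42.7) in the dLG, lowest in replicate e, where *Mef2c* was highest. In the VPM they were 23.0 to 27.2 CPM (median 24.5) and in the MGv 21.5 to 30.0 CPM (median 26.7). Of 4 tested, *Gad2*, *Slc32a1*, and *Sst* were lower in the VPM than in the dLG. Between the MGv and the dLG edgeR called none, 2 had an unadjusted p under 0.05, and DESeq2 called 2. The part of the microglia and inhibitory neuron markers in the *Mef2c* differences was not tested.

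*Meis2* was lower in the VPM than in the dLG (log2FC -0.89, adjusted p = 0.0726) and the MGv (MGv minus VPM 0.86, adjusted p = 0.0827), calls that were lost without any 1 of 7 and of 8 of the 13 libraries, with adjusted p up to 0.208 and 0.230 (0.108 for the dLG pair without dLG replicate c). The astrocyte markers *Gfap* and *Sox9* were lower in the VPM than in both other nuclei, and *Aldh1l1* was lower than in the dLG, with *Sox9* at 388.3 ± 90.9 CPM in the VPM, 705.3 ± 142.5 CPM in the dLG, and 728.9 ± 96.6 CPM in the MGv. Their part in the *Meis2* difference was not tested. The background of these pairs differed, since 9.64% of all genes were called between the VPM and the dLG, 0.647% between the MGv and the dLG, and 11.4% between the MGv and the VPM. *Tbr1*, *Emx2*, *Bhlhe22*, and *Bcl11b* had adjusted p of 0.616, 0.397, 0.432, and 0.541 over the nuclei. *Fezf2* and *Emx1* failed the filter on low counts within the thalamus, and with counts in so few libraries no difference between the nuclei could be shown for them.

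Markers of neurons moved with some of these results. In the MGv, the *Bcl11a* libraries kept the order of the summed 10 neuron markers, which measured 2020, 878, 783.4, and 1670 CPM in replicates a to d. That sum overlapped among the nuclei, with 1365 to 1783 CPM in the dLG and 899.4 to 1820 CPM in the VPM. *Bcl11a* did not keep the order of the sum within the dLG or the VPM. The sums were 1495, 1783, 1694, 1365, and 1481 CPM in dLG replicates a to e. In VPM replicates a to d they were 1470, 899.4, 1234, and 1820 CPM. *Nrgn*, a calmodulin-binding protein gene of excitatory neurons, measured 11.9 to 42.8 CPM in the MGv, 2.90 to 5.45 CPM in the dLG, and 1.77 to 2.72 CPM in the VPM, and was higher in the MGv (log2FC 2.84, adjusted p = 0.00156 against the dLG and 3.58, adjusted p = 0.000403 against the VPM). *Slc17a7*, the vesicular glutamate transporter gene of cortical excitatory neurons, went the other way, at 2.08 ± 1.40 CPM in the MGv, 10.4 ± 3.46 CPM in the dLG, and 27.6 ± 16.3 CPM in the VPM, and was lower in the MGv (log2FC -2.31, adjusted p = 0.0395 against the dLG and -3.68, adjusted p = 0.00115 against the VPM). *Neurod6*, a factor of cortical excitatory neurons, held 0, 13, 4, and 37 counts in MGv replicates a to d and at most 1 count in any dLG or VPM library. MGv replicate a had the highest *Bcl11a* level of all 17 libraries, held no *Neurod6* count, and had the lowest *Nrgn* level of the MGv (11.9 CPM). Of 8 thalamic neuron markers, *Gbx2* alone was called by edgeR between the MGv and the dLG. Its mean was 16.7 CPM in the MGv, 1.07 CPM in the dLG, and 1.04 CPM in the VPM. Against the VPM, 3 of the 8 were higher in the MGv, *Gbx2* among them, and 1 was lower. The part of these transcripts in the *Bcl11a* difference was not tested.

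**Figure D3:**
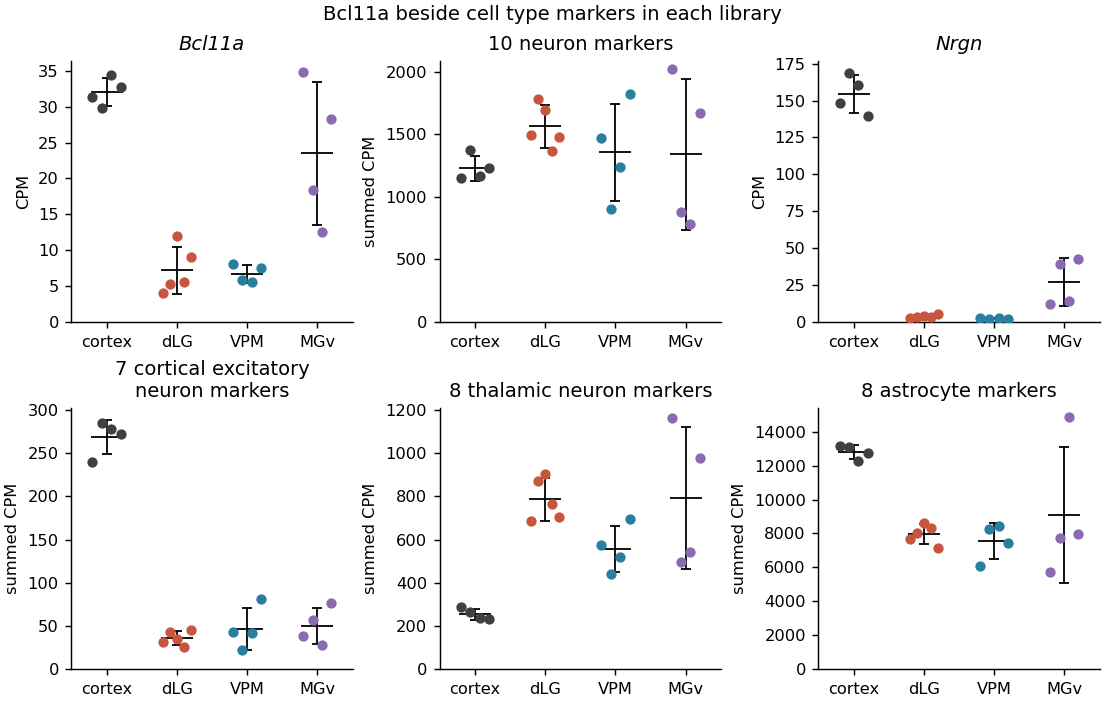
*Bcl11a*, *Nrgn*, and the summed levels of 4 marker lists in CPM by library (points), with means and SDs. *Bcl11a* and *Nrgn* are higher in the MGv than in the dLG and VPM (*Slc17a7*, of the same list as *Nrgn* and not drawn singly, is lower), the 10 neuron markers overlap among the nuclei, and the 7 cortical excitatory neuron markers are highest in the cortex.

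Transcripts of cortical excitatory neurons were also higher in the cortical libraries. Of 7 such markers other than *Tbr1*, 4 were lower in the thalamus (*Neurod2*, *Neurod6*, *Nrgn*, and *Slc30a3*) and none higher. Their summed level ranged from 239.8 to 285.5 CPM in the cortex and from 22.5 to 80.7 CPM in the thalamus, a 6.65-fold difference of the medians. *Neurod6* measured 28.6 to 35.5 CPM in the cortex and at most 1.68 CPM in the thalamus. *Neurod2* measured 17.4 to 22.2 CPM in the cortex and was at 0 in every dLG and VPM library, where the cortical mean was at least 677-fold and 518-fold higher. In the dLG and VPM these 2 factors were thus at or near 0, as *Fezf2* was. In the MGv, *Neurod2* held up to 17 counts in a library (replicate b) and *Neurod6* up to 37 (replicate d), against at most 2 for *Fezf2*. Of 8 inhibitory neuron markers, 4 were lower in the thalamus (*Lhx6*, *Dlx1*, *Dlx2*, and *Dlx5*), with summed levels of 43.4 to 97.5 CPM in the cortex and 21.5 to 49.9 CPM in the thalamus.

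Thalamic neuron markers moved the other way. Of 8 such markers, 6 were higher in the thalamus (*Slc17a6*, *Gbx2*, *Tcf7l2*, *Rora*, *Calb2*, and *Pcp4l1*) and *Prkcd* was lower, with summed levels of 231.3 to 286.3 CPM in the cortex and 438.8 to 1163 CPM in the thalamus. Of the 10 general neuron markers, *Nefm* and *Nefl* were higher in the thalamus and *Rbfox3* was lower (38.1 ± 5.67 CPM in the cortex, 16.5 ± 7.73 CPM in the thalamus, log2FC -1.21, adjusted p = 0.0112). Of the 8 astrocyte markers, *Slc1a2*, *Slc1a3*, and *Aldoc* were lower in the thalamus, and *Aqp4* (log2FC 0.31, adjusted p = 0.404) and *Aldh1l1* (0.10, adjusted p = 0.831) were not called. None of 7 oligodendrocyte lineage markers was called by edgeR or DESeq2, and none had an unadjusted p under 0.05. None of the 6 microglia markers was called by edgeR, where 2 had an unadjusted p under 0.05 and DESeq2 called 2. The study reports *Gbx2*, *Rora*, and *Tcf7l2* among the genes shared by neurons and astrocytes of the thalamus. It also detected RNA of shared genes in GFP-labeled cells of brain slices and in cultured astrocytes. The cells that gave the marker counts were not determined here. The part of the neuron markers in the regional differences of the 9 genes was not tested.

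The library numbers in the labels fall into series, of which a larger one held all MGv libraries and 2 each of the other groups, and a smaller one held 2 libraries each of the cortex, dLG, and VPM, while dLG replicate c belonged to neither. The 8 lower genes were lower in both series. Within the larger series the log2 ratio of mean CPM (pseudocount 0.5) was -5.62 for *Fezf2*, -4.61 for *Emx1*, -3.62 for *Tbr1*, -2.97 for *Mef2c*, -2.37 for *Meis2*, and -1.84 for *Emx2*. Within the smaller series it was -4.80, -4.06, -3.59, -2.97, -2.22, and -1.75. For these 6 genes all thalamic libraries lay below the cortical ones in each series. The ratio of *Bcl11a* was -1.18 in the larger series, with overlapping libraries, and -2.02 in the smaller series, and that of *Bhlhe22* was -0.36, with overlapping libraries, and -1.14. *Bcl11b* measured 0.06 and 0.61. Because the smaller series held no MGv library, the nuclei in it were the dLG and VPM alone.

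Per kilobase of exon, the order of the levels in the cortex was *Mef2c* (11.9 ± 2.37 CPM per kb), *Emx2* (10.3 ± 2.58), *Bhlhe22* (9.23 ± 2.93), *Fezf2* (6.26 ± 3.17), *Meis2* (6.24 ± 0.98), *Emx1* (5.23 ± 1.29), *Tbr1* (2.92 ± 0.71), *Bcl11a* (2.43 ± 0.15), and *Bcl11b* (1.497 ± 0.68). Neighbors in this order overlapped between libraries except *Emx1* with *Tbr1* and *Bcl11a* with *Bcl11b*. In each of the 3 nuclei the first and second places were held by *Bhlhe22* (4.46 to 5.95 CPM per kb) and *Emx2* (2.20 to 3.34), and the seventh to ninth by *Tbr1*, *Emx1*, and *Fezf2*. *Bhlhe22* lay above *Emx2* in every library of the dLG and MGv and in 3 of the 4 VPM libraries. *Fezf2* thus stood at place 4 of 9 in the cortex and last in the thalamus, and *Bcl11b* last in the cortex and at place 3 or 4 in the nuclei. In the nuclei, *Bcl11b* measured 1.73 ± 0.42 (dLG), 1.76 ± 0.37 (VPM), and 2.17 ± 0.38 CPM per kb (MGv).

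To place the 9 genes among related ones, 3 lists of other transcription factors were read from the same test of thalamus against cortex. None of the lists is complete. Of all 17856 genes tested, 1059 (5.93%) were called lower in the thalamus and 974 higher. The first held factors of the dorsal telencephalic progenitors and their neighbors, of which 12 were tested, 5 were lower in the thalamus, and 1 was higher, with a median log2FC of -1.003. *Lhx2*, a selector gene of cortical identity, fell from 231.1 ± 11.8 CPM in the cortex to 7.74 ± 5.51 CPM in the thalamus (log2FC -4.90 ± 0.37, adjusted p = 2.54e-08). *Nr2e1*, a factor of neural stem cells, was lower in the thalamus (44.0 ± 9.30 against 137.3 ± 12.8 CPM, log2FC -1.64), and so was *Dmrta2* (log2FC -5.07), a doublesex-related gene of the telencephalon. *Dmrt3* held no count in any thalamic library and had a mean of 2.02 ± 0.93 CPM in cortical libraries, at least 180-fold higher. *Nr2f2* (COUP-TFII) was the exception, with 84.4 ± 26.7 CPM in the thalamus against 1.30 ± 1.03 CPM in the cortex (log2FC 5.91 ± 0.46, adjusted p = 3.34e-08). *Pax6*, the dorsal progenitor factor, was not called (log2FC -0.36, adjusted p = 0.236), and *Sox2* and *Hes5*, shared by progenitors and astrocytes of many regions, were not called either.

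The second list held 22 factors of projection neurons, of which 5 were lower in the thalamus and 1 was higher, with a median log2FC of -0.04. *Neurod2*, *Neurod6*, and *Zbtb18*, a zinc finger repressor of projection neuron differentiation (118.5 ± 22.8 CPM in the cortex, 34.8 ± 7.04 CPM in the thalamus, log2FC -1.77), were lower, as were *Foxp1* (log2FC -0.86, adjusted p = 0.00877) and *Rorb* (log2FC -0.46, adjusted p = 0.0460). *Tshz2* was higher (log2FC 0.84, adjusted p = 0.0528), although 67.5% of its exonic length is shared with other annotated genes. The calls of *Rorb* and *Tshz2* were each lost without cortex replicate a, b, or d, with adjusted p of 0.194, 0.166, and 0.128 and of 0.119, 0.103, and 0.208. The upper layer gene *Cux2* (log2FC 0.41, adjusted p = 0.148), the corticothalamic gene *Tle4* (-0.22, adjusted p = 0.288), and the deep layer gene *Sox5* (-0.06, adjusted p = 0.837) were not called.

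The third list held the paralogs of the 9 genes, of which 6 were tested. *Meis1* was higher in the thalamus and none was lower. DESeq2 also called 1, and 2 had an unadjusted p under 0.05. *Mef2a*, *Mef2b*, *Mef2d*, *Meis3*, and *Tbx21* were not called, with log2FC from -0.48 to 0.42. *Eomes*, *Bhlhe23*, and *Fezf1* were not tested, for too few or no counts.

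**Figure D4:**
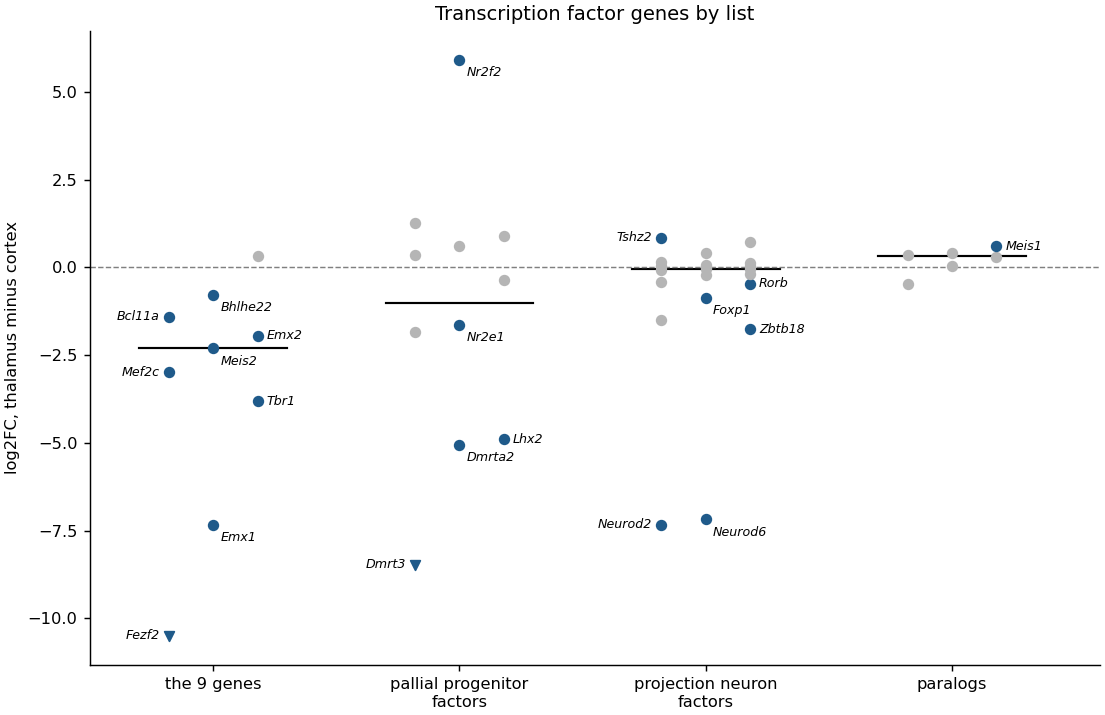
Fitted log2FC of thalamus minus cortex for the tested genes of each list (points, blue where the adjusted p is under 0.1), without 1 pallial progenitor factor that is not drawn. Bars are medians over all tested genes of a list, the dashed line is the median of all 17856 genes, and triangles mark genes with at most 3 counts in every thalamic library, whose values depend on the prior count. The 9 genes have a median of -2.31, the projection neuron factors -0.04.

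Last, the genes whose profiles over the 17 libraries were nearest to each of the 9 were found among the 17855 other genes tested, by the root mean square difference of centered log2(CPM + 0.5). For *Emx1* these were the unnamed gene *Gm29260* (difference 0.33) and *3110099E03Rik* (0.40), against a root mean square of 1.89 for *Emx1* itself. *Gm29260* was also nearest to *Fezf2* (0.42 against 2.20), followed by *Dlx1* (0.43), and measured 10.6 ± 1.81 CPM in the cortex. For *Tbr1* they were *Chrdl1*, an astrocyte-secreted BMP antagonist (0.39 against 1.56, at a cortical mean of 220.3 ± 21.1 CPM and a thalamic one of 23.8 ± 9.09 CPM), and *Notum*, a secreted Wnt inhibitor (0.46). *Emx2* was nearest to *Dkk2*, another Wnt antagonist gene (0.42 against 0.94), and to *0610040J01Rik* (0.43), and the latter also followed *Lhx6* (0.48) as one of the nearest to *Mef2c* (0.51 against 1.42).

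*Meis2* was nearest to *Entpd2*, an ectonucleotidase gene (0.44 against 1.10), and to *Dmrta2os* (0.48), the transcript beside *Dmrta2*. *Bcl11a* was nearest to *Npas1* (0.50 against 1.06) and *Rab3b* (0.54), and *Bhlhe22* to *Kcnip4* (0.23 against 0.48) and *Rgmb* (0.29). For *Bcl11b*, which differed little between groups, the nearest were *Dhx38* (0.28 against 0.45) and *Cux2* (0.29). With a pseudocount of 2 in place of 0.5, 8 of these 18 pairs remained.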

How the data were processed

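The 17 libraries were made with SMARTer and NEBNext Ultra kits and sequenced on 1 flow cell. According to the methods and the labels, the authors used STAR (2.7.0d) to align adapter-trimmed reads to the GRCm38 build and featureCounts (Subread 1.6.4) to count them on Ensembl genes, and deposited raw counts per gene without normalization. The kits do not mark strand, and strand counting is not stated in the sources used here. Gene names and positions came from GENCODE for GRCm38, which named 26548 of 26556 identifiers. Sequences came from RefSeq.

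Counts were tested with edgeR (4.0.16, R 4.3.3), with TMM factors, filterByExpr, and robust quasi-likelihood fits of 2 regions, of 4 groups, and of 3 nuclei. Adjusted p-values are Benjamini-Hochberg values over all genes tested, with a threshold of 0.1, and SEs and 95% intervals follow from the fit. Folds against a group at 0 used a floor of 3 counts over the group, and folds against a few counts an exact Poisson interval. PCR reads that carry no molecular identifiers are not independent, and floors and intervals therefore hold for counting error alone. Levels per kb used the merged exon length. The labels do not say whether the libraries of a group came from separate litters, so p-values measure the spread between these pools. The fit was tested on simulated data.

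The alternatives were DESeq2 (1.42.0), its size factors, other filters and thresholds, a fit without robust weights, other sample sets, a covariate for the library series, a block for the replicate letter, and the omission of each library. The 9 genes and all lists of transcription factors and markers (astrocyte, neuron, cortical excitatory, thalamic and inhibitory neuron, oligodendrocyte lineage, microglia, and vascular) were chosen with earlier results of these data known. Named were the 9 genes, at most 8 called genes per transcription factor list in the order of p, and the 2 most similar profiles per gene. Of these, 1 called gene is not reported here. Other genes, named as markers, as results of their kind, or as genes not called, were chosen after their values were seen.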

Additional observations from a re-analysis of the deposited data

Results flagged for a closer look

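Of 34 sets of 4 or 5 libraries of 1 gene that were examined, 5 held a library far from the others by Dixon's criterion. Chance gives about 1 in 20 sets for continuous values, a rate that does not apply to 3 of the 5 sets (*Fezf2* in the MGv and *Emx1* in the dLG and VPM), where a single library with counts among libraries at 0 meets the criterion by construction. *Fezf2* was detected in MGv replicate c at 0.0949 CPM (2 counts) and in no other MGv library. *Emx1* was detected in dLG replicate e at 0.555 CPM (11 counts), with the other 4 dLG libraries at 0, and in VPM replicate d at 0.0985 CPM (2 counts), with the other VPM libraries at 0. *Bhlhe22* was lowest in VPM replicate b, at 11.1 CPM, while the other 3 VPM libraries lay between 16.0 and 16.4 CPM. *Bcl11b* was highest in VPM replicate d, at 18.7 CPM, with the others between 12.3 and 13.3 CPM.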

How the results depend on the processing

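The regional calls of *Fezf2*, *Emx1*, *Tbr1*, *Emx2*, *Mef2c*, and *Meis2* kept their direction and stayed past the threshold under every alternative that could test them and without any 1 library. With at least 10 counts required in every library, *Fezf2*, *Emx1*, and *Tbr1* could not be tested, and 5 of the remaining 6 genes were called in the thalamus, the dLG, and the VPM and 4 in the MGv, while 2 of 7 pallial progenitor factors were called, changes that follow from the fewer genes tested. At an adjusted p under 0.05, 1 gene in place of 2 was called in each pair of nuclei. Without a filter on low counts, 1 gene was called between the MGv and the VPM and 2 paralogs between the regions, and with the library series as a covariate 1 gene between the MGv and the dLG, and the cause was not tested. When each library was left out in turn, 6 to 8 of the 9 genes were called between thalamus and cortex, with the lowest number without cortex replicate b. The number was 7 to 8 for the dLG, 8 to 8 for the VPM, and 6 to 7 for the MGv against the cortex, 2 to 3 among the nuclei, 0 to 3 between the VPM and the dLG (0 without VPM replicate a or c, 1 without dLG replicate b, c, or e, MGv replicate d, or VPM replicate d), 0 to 2 between the MGv and the dLG (0 without dLG replicate b or MGv replicate a or d, 1 without dLG replicate c or e, MGv replicate b or c, or any VPM library but b), and 1 to 2 between the MGv and the VPM (1 without dLG replicate a or b, any MGv library but a, or any VPM library but b). It was 0 to 1 for the paralogs, 6 to 7 for the pallial progenitor factors, and 4 to 7 for the projection neuron factors. The share of all genes tested that was called also changed in these fits. Between thalamus and cortex it was 6.69% without cortex replicate b, against 11.4% with all libraries. Between the VPM and the dLG it was 2.31% without VPM replicate a and 2% without c, against 9.64%. Between the MGv and the dLG it was 0.385% without dLG replicate b, against 0.647%. Without MGv replicate a or d that last share was 0.647% or 0.442%. The test over the 3 nuclei called *Meis2* under 5 alternatives that kept all libraries, with a lowest adjusted p of 0.0225. Of the values of single genes among the 9 with all libraries kept, 533 held their direction and side of the threshold, 15 lost and 5 gained the call, and 7 turned sign.

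Signs that turned were those of differences that were not called. *Bcl11b* between the VPM and the dLG was 0.021 without a filter, 0.15 with the replicate block, 0.0088 with the library series, and 0.026 in the fit with the cortex, *Bcl11a* in that pair was 0.16 with the library series, and *Meis2* between the MGv and the dLG was 0.049 with the replicate block and 0.23 with the library series. Without 1 library in turn, *Bcl11b* ranged from -0.057 to 0.51 in the dLG and from -0.03 to 0.50 in the VPM against the cortex. Between the VPM and the dLG, *Bcl11a* then ranged from -0.263 to 0.126 and *Bcl11b* from -0.151 to 0.159. Between the MGv and the dLG, the ranges were -0.75 to 0.188 for *Tbr1*, -0.206 to 0.033 for *Bhlhe22*, and -0.199 to 0.072 for *Meis2*, and between the MGv and the VPM -0.090 to 0.484 for *Emx2* and -0.205 to 0.034 for *Mef2c*.

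The same replicate letters occur in each group, and libraries that share a letter did not deviate together in every pair, since 6 of 24 such pairs had a correlation above 0.1 (median 0.02; 4 of the 6 were among the 6 pairs of letter d, and none among those of letter c) against 19 of 84 pairs with other letters (median -0.01). With the letter as a replicate block, 8 genes were called between the regions, against the cortex 7 (dLG), 8 (VPM), and 7 (MGv), and 0 in place of 2 between the MGv and the dLG, where *Bcl11a* (adjusted p = 0.140) and *Mef2c* were no longer called. Of all genes tested, the fit with the block called 9.97% between the regions, against 11.4% without it. Against the cortex it called 14.5% (dLG), 10.3% (VPM), and 19.1% (MGv), in place of 19.4%, 9%, and 15.4%. Between the MGv and the dLG it called 0.589% in place of 0.647%. Depth limits *Fezf2* and *Emx1* in the thalamus, where most libraries held no count.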
